A study of Mus musculus with 6 samples.

Results

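Abundant or well-known noncoding RNAs were followed in B cells that lack or carry the poly(A) polymerase TENT5C: *Gas5*, *Snhg1*, *Neat1*, *Malat1*, *Rn7sk*, *Rmrp*, *Rpph1* and *Terc*. They were chosen by name, 8 of the 54446 genes listed in the deposited values, and were compared by whether the RNA ends in a poly(A) tail. Naive B cells were taken by negative selection from the spleens of *Tent5c* KO mice and WT littermates, kept on a mixed C57BL/6J X CBA background and 12 to 15 weeks old, and all cultures, WT as well as KO, received IL-4 at 20 ng/ml together with LPS at 20 µg/ml over 7 days. The KO allele is a germline change made with CRISPR and so is present in every cell of the mouse, not in B cells alone. Total RNA was depleted of ribosomal RNA, so that RNAs with and without tails were both kept, and was sequenced with strand information in 3 KO and 3 WT libraries; each replicate number is 1 KO and 1 WT littermate, called a pair here.

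TENT5C lengthens poly(A) tails in the cytoplasm, and the comparison asks whether noncoding RNAs that carry such a tail changed in KO cells otherwise than RNAs whose 3′ ends are made in other ways. *Gas5* and *Snhg1* are spliced, polyadenylated host genes whose introns give small nucleolar RNAs (snoRNAs), the guides for rRNA modification. *Neat1* is made as a short polyadenylated form and as a long form without a tail that builds nuclear paraspeckles. *Malat1*, of nuclear speckles, ends at a cut by RNase P, and a triple helix protects that end. *Rn7sk* (7SK, which holds the elongation factor P-TEFb inactive), *Rmrp* (the RNA of RNase MRP) and *Rpph1* (the RNA of RNase P) are made by RNA polymerase III, and *Terc* is the template RNA of telomerase.

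The libraries held 5393558 to 6793520 fragments on genes. *Tent5c* itself was listed at 1993, 993 and 1170.4 normalized counts in the KO libraries of pairs 1, 2 and 3 and at 1255, 767 and 1584 in the WT libraries, so its transcript level does not separate the genotypes and does not check the labels. The 6 B cell markers summed to between 27594 and 32723 normalized counts in every library, the 8 T cell markers to at most 102, the 7 myeloid markers to at most 129, and of the 5 erythroid markers 4 were at 0 in all libraries. The 5 plasmablast markers varied more, with sums of 8049 to 15765 in the KO and 7905 to 18378 in the WT libraries. Their median log2 KO/WT was 0.42, 0.0060 and −0.50 in pairs 1, 2 and 3. Short structural RNAs set the libraries apart: 186 tested snoRNA, snRNA and other small RNA genes with under 150 bases of exon took 1.62% of fragments in the KO library of pair 3 and 1.90% in the WT library of pair 1, against 2.40%, 3.03%, 3.13% and 3.88% in the KO library of pair 2, the WT library of pair 2, the KO library of pair 1 and the WT library of pair 3. These values are of bulk RNA, in which fewer cells of a type and less RNA per cell cannot be told apart.

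The members covered a wide range of levels, with *Rn7sk* on top and *Neat1* at the bottom. Per kilobase of annotated exons, *Rn7sk* stood at 310336 to 317036 normalized counts over the 6 libraries and *Malat1* at 4679 to 6715, so that *Rn7sk* was 57.6 times higher on this scale. *Terc* followed at 1270 to 2600.4, *Gas5* at 500.4 to 631, *Snhg1* at 348 to 496, *Rpph1* at 148 to 604 and *Neat1* at 8.12 to 29.8. The ranges of *Rn7sk*, *Malat1*, *Terc*, *Gas5* and *Snhg1* did not overlap, whereas that of *Rpph1* spanned all of that of *Snhg1* and part of that of *Gas5*. In shares of all fragments, *Rn7sk* took 1.58% to 1.68% and was the second highest of all genes listed, *Malat1* took 0.522% to 0.747%, and *Rpph1*, the lowest member with fragments, took 0.000765% to 0.00297%. Exon length here joins all annotated transcripts of a gene, retained introns included, which lowers the value per kilobase of *Gas5* and *Snhg1*. For *Neat1* it is the 20771 bases of the long form, while the short form has 3004. The share of each form is not known, so the value of *Neat1* per kilobase depends on the length used.

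**Figure D1:**
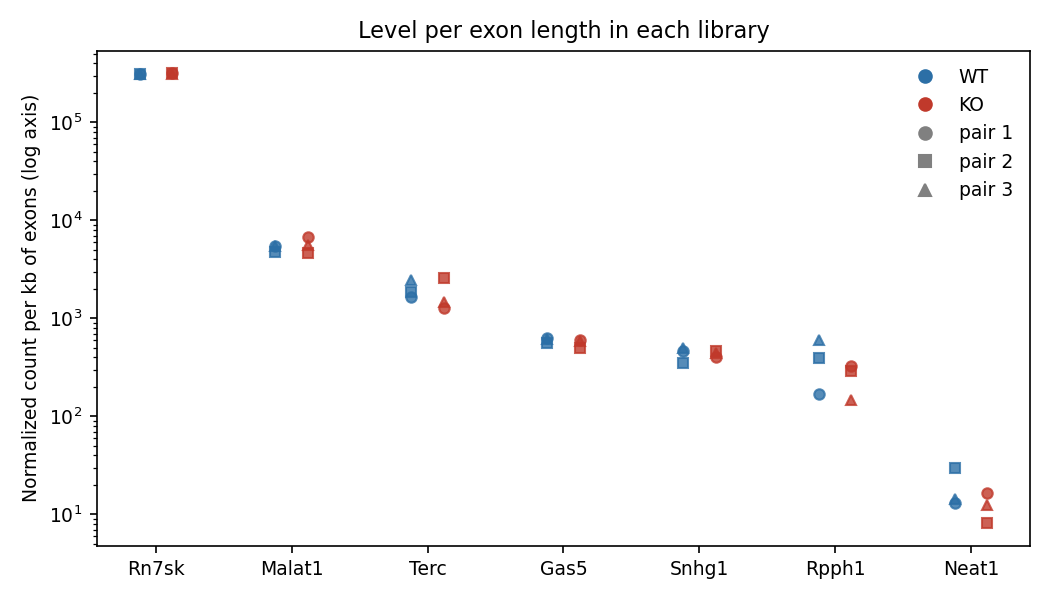
Level of each noncoding RNA per kilobase of exons, in normalized counts on a log axis, with 1 point for each library (blue, WT; red, KO; the shape gives the pair). *Rn7sk* lies near 313343 and *Malat1* near 5437, while *Neat1* lies between 8.12 and 29.8; WT and KO points overlap for every RNA shown.

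No member passed the test for a difference between the genotypes. In limma, fitted on log2(normalized count + 1) with the pair in the model, for the 12322 genes whose normalized counts averaged 10 or more, 0 of the 7 members tested passed an adjusted *p* of 0.05, where 0% of all genes tested did so, and 0 of 7 had an unadjusted *p* under 0.05, where 4.7% of all genes did. The count was 0 of 7 on both measures in edgeR and in DESeq2 as well, and DESeq2 called 0.232% of the genes to which it gave an adjusted *p*. The lowest unadjusted *p* of a member was 0.171 (*Gas5*) in limma. The KO and WT values overlapped for all 7, whereas they did not overlap for 6.83% of all genes tested. In log2 KO/WT 3 members were above 0 and 4 below 0, with a median of −0.092 beside 0.00067 for all genes tested. *Rmrp* was listed at 0 and had no test.

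**Figure D2:**
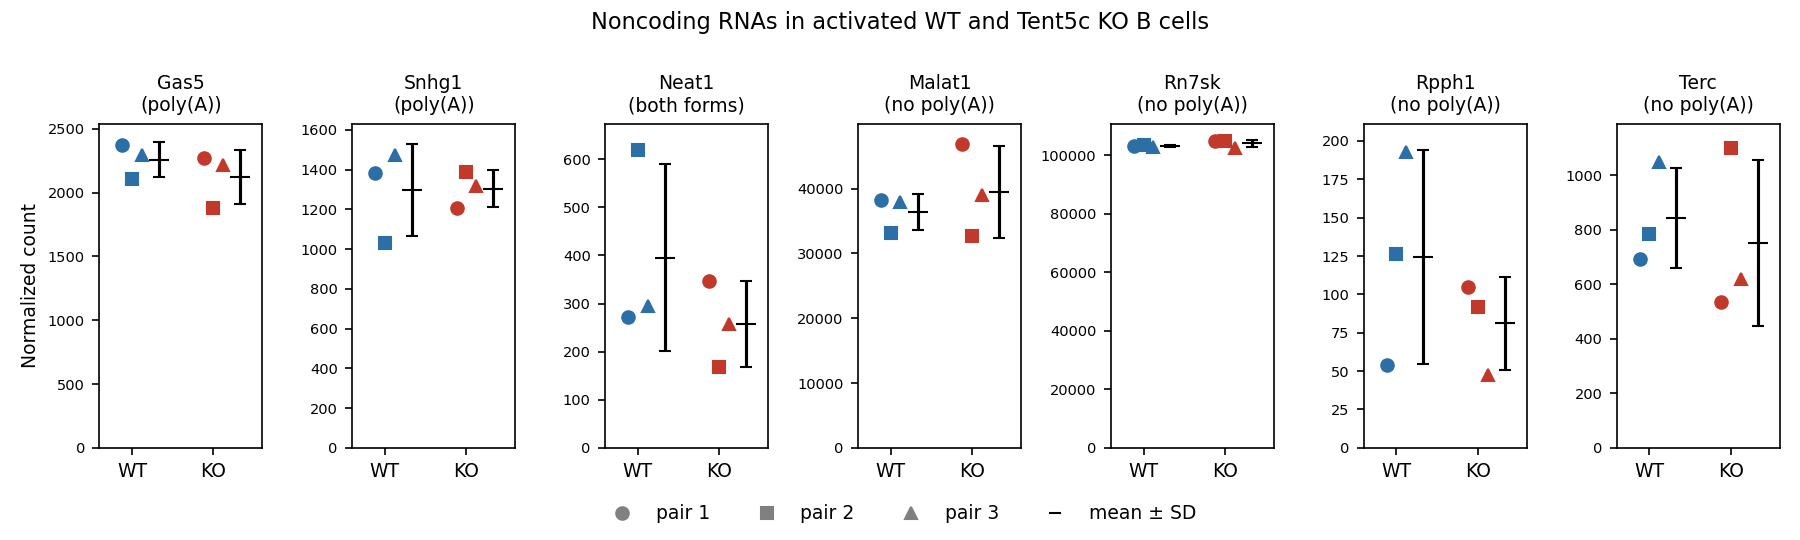
Normalized counts of the 7 measured RNAs in WT (blue) and KO (red) libraries, each panel with its own axis from 0; shapes mark the pairs and black bars the mean ± SD of 3 libraries. *Rn7sk* is nearly level from 102721 to 104939, while *Neat1* and *Rpph1* spread 3.67-fold and 4.08-fold between their lowest and highest library.

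**Figure D3:**
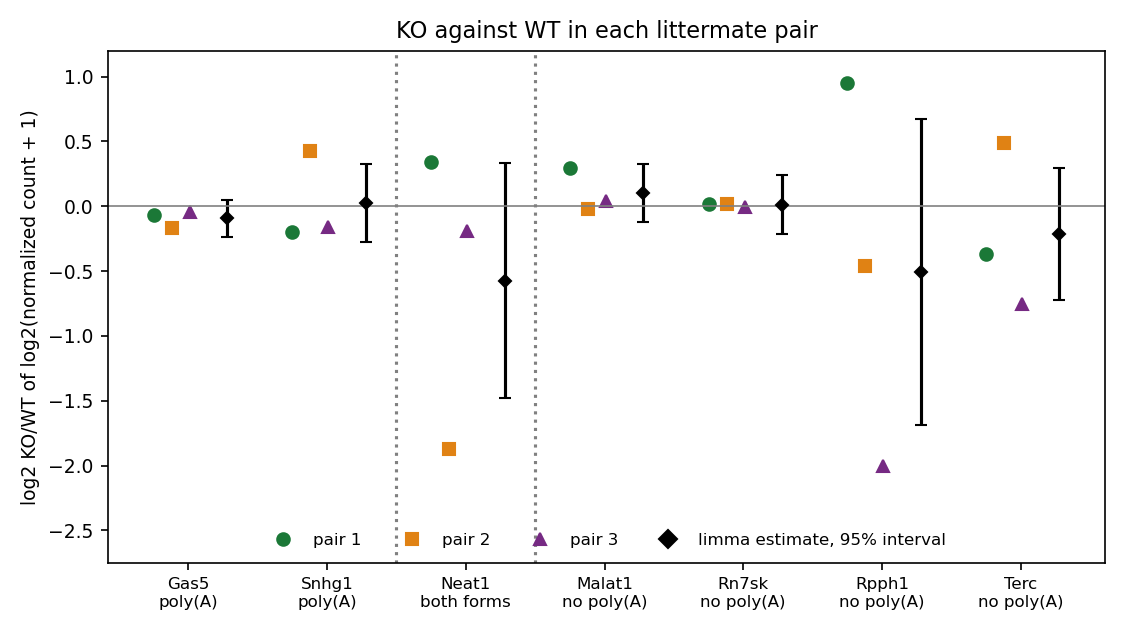
log2 KO/WT in each littermate pair (coloured shapes) and the limma estimate with its 95% interval (black), for RNAs with a tail, in both forms and without a tail, from left to right. Every interval includes 0, and the pairs lie on both sides of 0 for each RNA except *Gas5*, whose 3 pairs lie between −0.17 and −0.046.

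Among the polyadenylated members, *Gas5* was measured most evenly. It lies on chromosome 1 from 161034422 to 161038539 (GRCm38, plus strand), and the 3′ end of its annotated transcript (chr1:161038490-161038539) carries a variant of the polyadenylation signal, in capitals, which is shown for comparison with the ends of the other members.
Gas5: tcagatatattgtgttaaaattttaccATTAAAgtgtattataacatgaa
*Gas5* was at 2269.8, 1882 and 2221 normalized counts in the KO libraries of pairs 1, 2 and 3 and at 2373, 2109.9 and 2292 in the WT libraries. KO was lower in each pair, by small amounts. Both libraries of pair 2 were low, and the groups overlapped because its WT library lay below the KO libraries of pairs 1 and 3. log2 KO/WT was −0.064, −0.17 and −0.046 in the pairs, and limma gave −0.092 (SE 0.060, 95% interval −0.23 to 0.051, adjusted *p* = 0.970), and −0.055 without pair 2. *Gas5* was the only member with the same sign in all 3 pairs, as were 24.8% of all genes tested.

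*Snhg1*, host of U22 and other snoRNAs, lies on chromosome 19 from 8723475 to 8726443 (plus strand). Its 3′ end (chr19:8726394-8726443) holds the canonical signal AATAAA, in capitals; AATAAA or ATTAAA stands in the last 50 bases of 33.8% of all 141672 annotated transcripts of at least that length.
Snhg1: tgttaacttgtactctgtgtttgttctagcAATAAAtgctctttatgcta
*Snhg1* was at 1206, 1387 and 1319 in KO and at 1382, 1033 and 1473 in WT. The WT library of pair 2 was the lowest of the 6 and that of pair 3 the highest, so that the WT values enclosed all KO values. log2 KO/WT was −0.20, 0.42 and −0.16, and limma gave 0.023 (SE 0.13, interval −0.28 to 0.33, adjusted *p* = 0.992).

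The snoRNAs that these hosts release could not be set beside them. The annotation places 10 snoRNA genes of 60 to 84 bases inside *Gas5* and 8 of 65 to 126 bases inside *Snhg1*, and all 18 were listed at 0 in the 6 libraries. In the annotation release used here, each lies wholly within annotated exons of its host. With the counting settings the methods give, fragments on exons of more than 1 gene are not assigned. Across the annotation, 731 of the 752 genes (97.2%) whose exons are wholly shared on their strand were at 0 in all libraries, against 54.1% of 53657 other genes. The overlaps were not checked in the release used for counting, and where fragments lie was not examined. The zeros are therefore not taken as a measure of these snoRNAs. Fragments of *Gas5* and *Snhg1* on those bases may not have been counted either.

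Other polyadenylated hosts and lncRNAs stayed near 0 as well. Of 17 other snoRNA host genes, 14 were tested, 10 below 0 and 4 above, with a median log2 KO/WT of −0.039, and 0 had an unadjusted *p* under 0.05. Their values ran from −0.34 (*Dancr*) to 0.11 (*Snhg20*). Of 12 other polyadenylated lncRNAs, all tested, 7 were below 0 and 5 above, the median was −0.016, and 0 had an unadjusted *p* under 0.05. The ends were *Trp53cor1* (lincRNA-p21, a p53 target) at −0.43 and *Mir155hg* (the host of miR-155, induced in activated B cells) at 0.17.

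*Neat1* spread widely, and 1 pair held both ends of its range. It lies on chromosome 19 from 5824708 to 5845478 (minus strand), and 1 value covers both of its forms. Their 3′ ends are shown because they are what makes *Neat1* a member of both classes: the short form (chr19:5842307-5842356) ends behind AATAAA, and the long form (chr19:5824708-5824763) ends in a T-rich and an A-rich stretch, in capitals, of the kind that folds into a triple helix.
Neat1, short form: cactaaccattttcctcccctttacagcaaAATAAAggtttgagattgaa
Neat1, long form: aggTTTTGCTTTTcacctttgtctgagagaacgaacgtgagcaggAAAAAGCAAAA
*Neat1* was at 346, 169 and 258 normalized counts in the KO libraries and at 273, 619 and 295 in the WT libraries. Pair 2 held the lowest and the highest library, and the other 4 libraries lay between 258 and 346. log2 KO/WT was 0.34, −1.87 and −0.19 in the pairs, and limma gave −0.57 (SE 0.38, interval −1.48 to 0.34, adjusted *p* = 0.970). Without pair 2 the value was 0.075. With 177 to 592 fragments a library, counting error was 4.11% to 7.52%, below the coefficient of variation of 47.3%. The KO library of pair 2 was also the lowest of the 6 in the sum of the 7 myeloid markers, at 18.1 normalized counts, beside 129 and 90.8 in the other KO libraries, but the WT library of pair 2, highest for *Neat1*, held the lowest WT sum, 64.8 beside 81.2 and 90.3. Their part in the *Neat1* values was not tested.

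*Malat1* lies next to *Neat1* on chromosome 19 from 5795690 to 5802672 (minus strand). It was 116 times higher than *Neat1* in normalized counts and 346 times higher per kilobase, with the long form as the length of *Neat1*. In its unspliced transcript the same pair of motifs, a T-rich stretch followed by an A-rich tract, stands at chr19:5795952-5796030. The annotated transcript runs on for 292 bases past the tract, to an AATAAA near its end, although the mature RNA is known to be cut just behind the tract.
Malat1, tract: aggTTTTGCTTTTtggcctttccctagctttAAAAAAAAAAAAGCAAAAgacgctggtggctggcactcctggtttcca
Malat1, annotated end: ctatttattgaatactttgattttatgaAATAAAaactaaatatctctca
TTTTGCTTTT followed by AAAAAGCAAAA within the last 400 bases of the transcript strand was found in 2 of 122312 transcripts of that length or longer, the unspliced *Malat1* and the long *Neat1*.
*Malat1* was at 46889, 32672 and 38968 in KO and at 38179, 33202 and 37899 in WT. The KO library of pair 1 was the highest and both libraries of pair 2 were the lowest. log2 KO/WT was 0.30, −0.023 and 0.040, and limma gave 0.10 (SE 0.093, interval −0.12 to 0.33, adjusted *p* = 0.970). The value was 0.0085 without pair 1 and 0.30 with quantile normalization. Of 11 paraspeckle and nuclear speckle proteins, the protein partners of *Neat1* and *Malat1*, 5 were below 0 and 6 above, the lowest being *Pspc1* at −0.082, with a median of 0.020 and 0 with an unadjusted *p* under 0.05.

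*Rn7sk* hardly varied. It is a gene of 331 bases on chromosome 9 from 78175303 to 78175633 (minus strand), and its last 50 bases (chr9:78175303-78175352) end in a T-rich stretch, in capitals, as genes of RNA polymerase III do, with no polyadenylation signal.
Rn7sk: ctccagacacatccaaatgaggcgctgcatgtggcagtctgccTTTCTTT
*Rn7sk* was at 104837, 104939 and 102721 in KO and at 103341, 103560 and 102902 in WT. Its coefficient of variation over the 6 libraries was 0.922%, where the median of all genes tested was 11.7% and only 1 of the 12322 had a lower value. Counting error alone was 0.297% to 0.342%. log2 KO/WT was 0.021, 0.019 and −0.0025, and limma, whose SE draws on the spread of genes of like level, gave 0.012 (SE 0.094, interval −0.21 to 0.24, adjusted *p* = 0.993). The genome holds near-identical copies of 7SK, and the mapping quality filter drops fragments that fit several of them, so that this is the level of the part of the RNA that maps to 1 place. All 7 genes of the proteins around 7SK were tested, 2 below 0 and 5 above, with a median of 0.027. They ran from *Hexim1*, which inhibits P-TEFb when bound to 7SK, at −0.054 to its relative *Hexim2* at 0.24, and 0 had an unadjusted *p* under 0.05.

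The RNAs of RNase P and RNase MRP were the least well measured. *Rpph1* lies on chromosome 14 from 50807449 to 50807767 (minus strand, 319 bases), and 233 of its bases are also exon of *Ccnb1ip1* on the same strand, which was itself listed at 0 to 13.2 normalized counts. The 35 and 51 bases at its 5′ and 3′ ends that belong to *Rpph1* alone, at chr14:50807733-50807767 and chr14:50807449-50807499, are shown because, with the counting settings the methods give, fragments that touch a shared base are not assigned. The overlap is that of the release used here and was not checked in the release used for counting, and where the fragments of *Rpph1* lie was not examined.
Rpph1, 5′ bases: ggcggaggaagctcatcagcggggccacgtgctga
Rpph1, 3′ bases: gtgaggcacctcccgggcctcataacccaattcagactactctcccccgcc
*Rpph1* was at 105, 91.5 and 47.2 in KO and at 53.8, 127 and 193 in WT. The lowest libraries were the KO library of pair 3 and the WT library of pair 1, the same 2 that were lowest in short structural RNAs, and the highest was the WT library of pair 3, which was also the highest there. log2 KO/WT turned from 0.95 in pair 1 to −0.46 in pair 2 and −2.01 in pair 3. limma gave −0.51 (SE 0.49, interval −1.69 to 0.67, adjusted *p* = 0.970), −1.23 without pair 1 and 0.24 without pair 3. With 52 to 160 fragments a library, counting error reached 13.9%, below the coefficient of variation of 52.0%. If all its fragments lay on unshared exon, *Rpph1* would be at 549 to 2240 per kilobase of it, a range that overlaps that of *Terc*. Its place in the order of levels thus depends on the length used.

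*Rmrp* has a pair of entries in the annotation release used here, both on the minus strand of chromosome 4, a lincRNA of 281 bases (43492783 to 43493063) and a ribozyme of 271 bases inside it, and both were listed at 0 in all 6 libraries. The sequence is shown because only the 5 bases in capitals at each end belong to 1 entry alone.
Rmrp: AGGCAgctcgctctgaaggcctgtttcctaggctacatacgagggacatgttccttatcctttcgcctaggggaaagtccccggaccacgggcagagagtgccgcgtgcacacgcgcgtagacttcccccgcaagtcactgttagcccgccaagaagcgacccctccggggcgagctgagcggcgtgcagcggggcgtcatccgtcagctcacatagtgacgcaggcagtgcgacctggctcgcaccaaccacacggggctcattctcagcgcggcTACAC
With the counting settings the methods give, a fragment that touches both entries is assigned to neither. The entries were not checked in the release used for counting, and where fragments of this RNA lie was not examined. The zeros are therefore not taken as a measure of how much RNase MRP RNA the cells held. *Ccdc107*, which overlaps *Rmrp* by 124 bases on the other strand, was at 2056, 1531 and 959.8 in KO and at 961, 1945 and 2742 in WT. Its pair values, 1.10, −0.35 and −1.51, ran in the order of those of *Rpph1*. Of the 11 proteins of the 2 enzymes 10 were tested, 6 below 0 and 4 above, with a median of −0.011, between *Pop5* at −0.21 and *Pop4* at 0.21, and 0 had an unadjusted *p* under 0.05.

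*Terc*, 423 bases on chromosome 3 from 96414437 to 96414859 (minus strand), ends in an ACA box 3 bases before its end, in capitals (chr3:96414437-96414486), the mark of the snoRNA-like 3′ ends that are trimmed and not polyadenylated.
Terc: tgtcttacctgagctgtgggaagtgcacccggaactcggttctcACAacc
*Terc* was at 537, 1099.97 and 621 in KO and at 694, 785 and 1049 in WT. The KO library of pair 2 was the highest and that of pair 1 the lowest, so that the KO values enclosed all WT values. log2 KO/WT was −0.37, 0.49 and −0.75, and limma gave −0.21 (SE 0.21, interval −0.72 to 0.30, adjusted *p* = 0.970). Without pair 3 the value was 0.058. All 8 telomerase proteins were tested, 5 below 0 and 3 above, with a median of −0.022. *Shq1*, an assembly factor, was lowest at −0.15, and *Tert*, the catalytic subunit, highest at 0.27, with 0 at an unadjusted *p* under 0.05.

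Between members with and without tails, KO/WT ratios differed by less than the spread between pairs. The mean log2 KO/WT of *Gas5* and *Snhg1* was −0.13, 0.13 and −0.10 in pairs 1, 2 and 3. The mean of *Malat1*, *Rn7sk*, *Rpph1* and *Terc* was 0.22, 0.0047 and −0.68. The difference, without tails minus with tails, was thus 0.35, −0.13 and −0.58, with a mean of −0.12 ± 0.47 (SD, n = 3 pairs), and its sign was not the same in all pairs. A single RNA carried most of that spread: without *Rpph1*, a setting chosen after seeing the data, the difference was 0.11, 0.031 and −0.14, with a mean of 0.0021 ± 0.13 (SD, n = 3 pairs).

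A wider list of structural RNAs without tails showed a pattern by pair that was larger in its shorter members. Of 23 such RNAs listed 17 were tested, 13 below 0 and 4 above, with a median log2 KO/WT of −0.30 and 0 with an unadjusted *p* under 0.05. Their median over the pairs, in the order 1, 2 and 3, was 0.56, −0.19 and −0.96, and the median of the list was −0.82 without pair 1 and 0.13 without pair 3. The ends of the list were *Rnu73b* (a snoRNA of 71 bases) at −0.88 and *Rnu2-10* (a U2 snRNA gene of 191 bases) at 0.073. Divided by length after the values were seen, the 11 RNAs of 70 to 191 bases had medians of 0.73, −0.37 and −1.35 in the pairs, and 9 of them were higher in KO in pair 1 and lower in pairs 2 and 3. The 6 RNAs of 265 to 414 bases had medians of 0.13, 0.091 and −0.29, and 1 of them, *Rn7s6* (a 7S RNA gene), had that order of signs. *Rpph1* had it as well, at 319 bases, while *Rn7sk* and *Terc* did not.

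**Figure D4:**
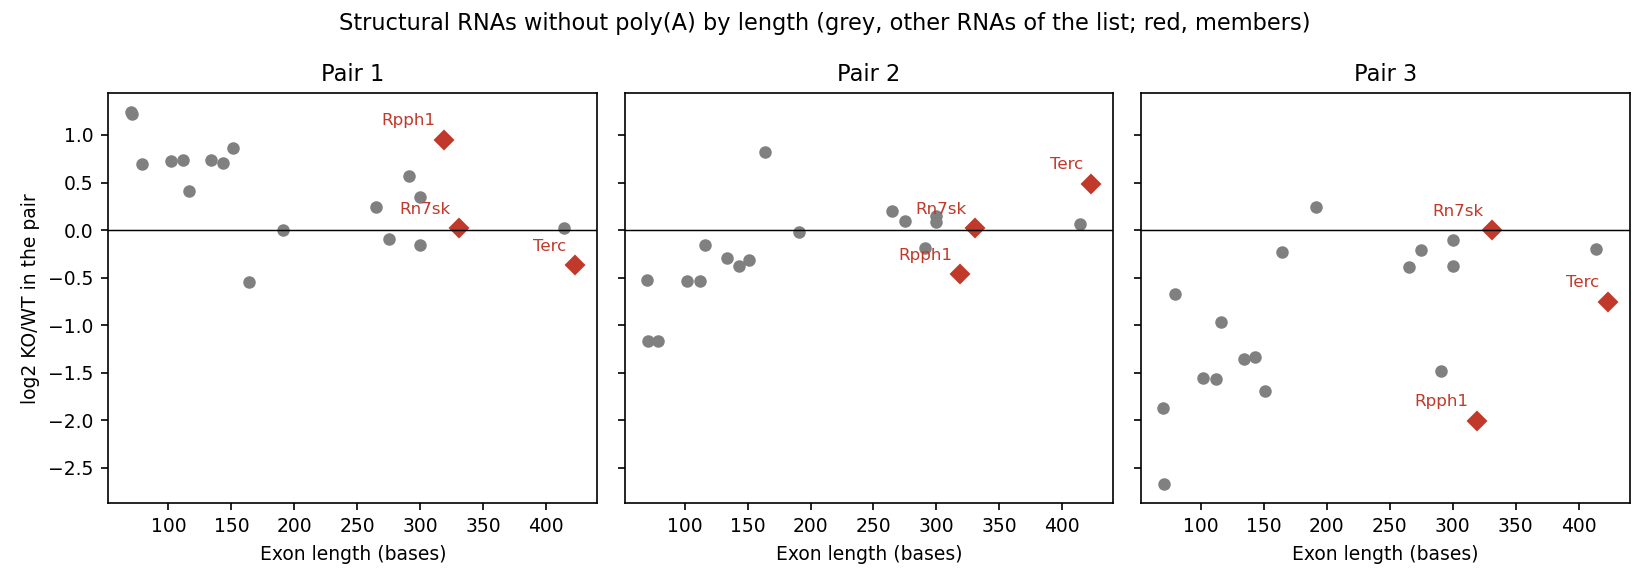
log2 KO/WT of structural RNAs without poly(A) tails against exon length in bases, 1 panel for each littermate pair; grey points are the 17 other RNAs of the list and red diamonds are members. Points under 200 bases lie mostly above 0 in pair 1 and below 0 in pairs 2 and 3, *Rn7sk* lies at 0.021, 0.019 and −0.0025, and *Rpph1* at 0.95, −0.46 and −2.01.

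The same order of signs was common among the small RNA genes of the annotation. Among 186 tested snoRNA, snRNA, scaRNA, ribozyme and other small RNA genes of 64 to 149 bases, 161 (86.6%) were higher in KO in pair 1 and lower in pairs 2 and 3, as were 21 of 35 (60.0%) genes of 151 to 246 bases and 12 of 25 (48.0%) of 255 to 423 bases, against 12.0% of all genes tested. The medians in pairs 1, 2 and 3 were 0.85, −0.42 and −1.90 in the shortest class, 0.32, −0.096 and −0.59 in the middle class and 0.44, −0.17 and −0.75 in the longest, so the size of the pattern did not fall steadily with length. Many of the genes share families and sequence and are not independent of each other. The classes also hold the tested RNAs of the list above, and the longest class holds *Rn7sk*, *Rpph1* and *Terc*. They are therefore not separate from the values of those genes, and the −0.75 of the longest class in pair 3 is the value of *Terc*. The direction differed between the pairs, and the part of this pattern in the *Rpph1* values was not tested.

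**Figure D5:**
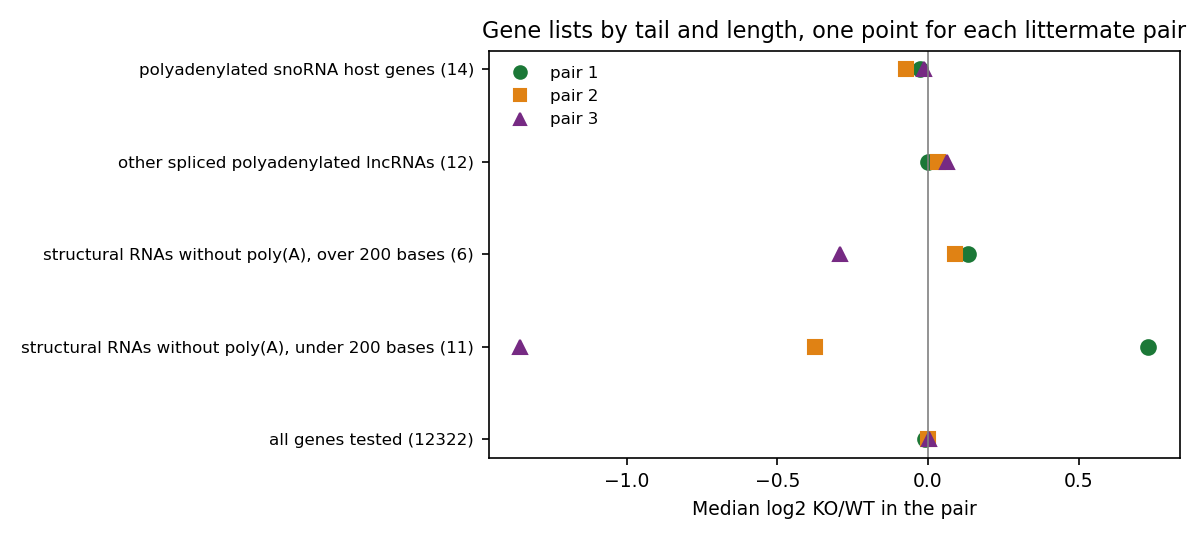
Median log2 KO/WT of each gene list in each littermate pair, with the number of genes tested in parentheses. Medians of the polyadenylated lists lie within 0.1 of 0 in every pair, those of structural RNAs under 200 bases at 0.73, −0.37 and −1.35.

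Over the 10 gene lists, the structural RNAs and left-over rRNA included, 121 genes were tested. limma and edgeR called 0 of them, with 3 at an unadjusted *p* under 0.05 in each, where 4.7% of all genes tested had such a *p* in limma and 568 of 12322 in edgeR. DESeq2 called 1, the rRNA entry *CT010467.1*, where it called 0.232% of the genes to which it gave an adjusted *p*. In DESeq2 2 had an unadjusted *p* under 0.05, a count for which the share over all genes was not taken. Of 31 RNA polymerase III subunits and factors 14 were below 0 and 17 above, with a median of 0.024. The highest was *Gtf3c2*, of the factor TFIIIC, at 0.17, and the lowest *Snapc5*, a subunit of the factor that starts transcription of 7SK, at −0.58 (SE 0.19, unadjusted *p* = 0.018, adjusted *p* = 0.970 in limma). *Snapc5* was at 36.8, 53.4 and 62.7 normalized counts in KO and at 66.1, 61.7 and 104 in WT, lower in KO in each pair although the groups overlapped.

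All 6 protein-coding neighbours of the members were tested, 4 below 0 and 2 above, with a median of −0.036. The highest was *Zbtb37*, which overlaps *Gas5* on the other strand, at 0.083. The lowest was *Slc3a2*, a subunit of amino acid transporters whose start lies 105 bases from that of *Snhg1* on the other strand. *Slc3a2* was at 1119, 777 and 1063 in KO and at 1299, 912 and 1486 in WT, lower in KO in 3 of 3 pairs, with log2 KO/WT of −0.22, −0.23 and −0.48 and a limma value of −0.31 (SE 0.076, unadjusted *p* = 0.0056, adjusted *p* = 0.738). *Snhg1*, read from the same region in the other direction, had 0.023.

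Ribosomal RNA that escaped depletion is a further RNA without a tail. Its 5 entries, annotated as rRNA, lincRNA or antisense, were all tested. They had a median of −0.78, with 4 below 0 and 1 above, and pair medians of 0.19, −0.70 and −1.50. That median is the value of an entry that averaged only 68.8 normalized counts. Summed, the 5 entries did not separate the groups, at 241193 to 254913 normalized counts in KO and 242714 to 260071 in WT. The median was −1.12 without pair 1, 0.012 without pair 3 and −0.45 over the 4 entries that averaged 50 normalized counts or more. The highest, *Gm26917*, was at 0.074 and averaged 213694 normalized counts, most of the sum. The lowest, an rRNA entry on chromosome 17 named *CT010467.1*, was at 11346, 11649 and 7641 normalized counts in KO and at 28821, 19467 and 21567 in WT, so that every KO library lay below every WT library. Its log2 KO/WT was −1.19 (SE 0.14) in limma with an adjusted *p* of 0.653, 0.669 in edgeR and 0.000415 in DESeq2. What sets the level of left-over rRNA was not tested.

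The genes most like each member across libraries were other genes than the members. Among 9588 genes averaging 50 normalized counts or more, and over 6 libraries that share pairs and scaling, the highest Pearson correlations named here of log2(normalized count + 1) were those of *Malat1* with *Eif2ak3* (0.997), which encodes the ER stress kinase PERK, and *Bcl2l1* (0.993), of *Neat1* with *Plcg1* (0.983) and *Fbxo7* (0.982), and of *Rn7sk* with *Usp1* (0.985) and *Mettl5* (0.980). *Rpph1* came closest to *Cmss1* (0.995) and to *Gm24616* (0.995), a snoRNA of 139 bases. Near *Gas5* was *Eif3c* (0.988), and *Snhg1* came closest to *Zfp677* (0.991) and *Nck1* (0.976), and *Terc* to *Ppp1r14b* (0.997) and *Npm3* (0.990). These values were picked from 9588 for each member and are given as a description. Between members the correlations ran from −0.82 (*Neat1* and *Snhg1*) to 0.66 (*Gas5* and *Malat1*).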

How the data were processed

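Per the methods, the authors trimmed reads with cutadapt (75-nt paired ends, fragments under 30 nt removed), aligned them to GRCm38 with STAR 2.6.1a and counted properly paired, strand-specific fragments on exons with featureCounts (Subread 1.6.3), mapping quality of at least 10 and Gencode vM19. Under these settings fragments on exons of more than 1 gene are not assigned, although the methods do not say so. The deposited values are these counts divided by DESeq2 size factors, a signal on the scale of counts. All values above 0 were whole multiples of 1 fragment (tolerance 0.001), so fragment counts were recovered. Gene positions and exons came from Gencode vM21, which may differ in single exons from vM19.

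limma 3.58.1 (R 4.3.3; trended eBayes, two-sided, Benjamini-Hochberg over 12322 genes with a mean of at least 10) was fitted to log2(normalized count + 1) with genotype and pair. Replicate numbers mark littermates, and libraries of a pair deviated together from their group means (correlations over genes of 0.328, 0.685 and 0.170). Alternatives were edgeR 4.0.16 and DESeq2 1.42.0 on recovered fragments, other pseudocounts, filters and scalings, no pair term, and leaving out each pair. The SE and intervals are those of limma; counting error is 1 over the root of the fragments and covers counting only. Sequences were read from Gencode vM21 transcripts.

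Members and lists were chosen with earlier results of these data known. Beyond members, named genes are the ends of each list, those with an unadjusted p under 0.05, and the 2 most like each member, except that single genes these rules pick are not reported here; *Ccdc107*, *Rn7s6* and the length classes were chosen after their values were seen. From the neighbour list *Actrt3* and *Myzap* were dropped after their values were seen, since the annotation places them far from any member. Snhg4, Snhg7, Rnu4atac and Rnu6atac were not matched and not analysed here.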

Additional observations from a re-analysis of the deposited data

How the results depend on the processing

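No member passed an adjusted p of 0.05 under any alternative, the lowest being 0.063 (Rpph1 without pair 1). Other pseudocounts, filters, scalings and tests kept the direction of each of the 7 members except Rn7sk, which was 0 with quantile normalization, as it held the same rank in every library. No scaling moved the median of all genes by more than 0.035 (log2). Leaving out a pair turned 4 of them: Neat1 to 0.075 without pair 2, Rpph1 to 0.24 without pair 3, Snhg1 to −0.18 without pair 2 and Terc to 0.058 without pair 3, for ranges of −1.03 to 0.075, −1.23 to 0.24, −0.18 to 0.13 and −0.56 to 0.058 (the cause was not tested). For Malat1 the range was 0.0085 to 0.17, and quantile normalization gave 0.30. For Gas5 it was −0.11 to −0.055, and total-count scaling gave −0.058 for it and 0.047 for Rn7sk. Without the replicate block the estimates were the same by construction and 0 genes were called. Over all genes, 23 were called by DESeq2 and 0 to 171 when a pair was left out (171 without pair 1, 1 without pair 2), against 0 in the other settings.

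The difference between members without and with tails, −0.12, ran from −0.35 (without pair 1) to 0.11 (without pair 3). It was −0.075 with quantile normalization, 0.063 with Neat1 among the tailed members, −0.20 with Neat1 among the others and −0.20 without Malat1, all within 1 SD over the pairs. List medians moved by more than their spread over pairs with total-count scaling for the snoRNA hosts (−0.0050) and the other polyadenylated lncRNAs (0.017). So did those of the 7SK proteins (0.061, and 0.045 with quantile normalization) and the RNA polymerase III factors (0.058). Total-count scaling also raised the median of all genes tested, from 0.00067 to 0.035, so the moves under it are not particular to these lists. Leaving out a pair gave −0.070 to 0.00046 for the lncRNAs, 0.014 to 0.062 for the 7SK proteins, −0.11 to 0.048 for the telomerase proteins, −0.82 to 0.13 for the structural RNAs, −1.12 to 0.012 for the left-over rRNA and −0.0018 to 0.056 for the RNA polymerase III factors. Among the members tested, counting error was largest for Rpph1 and Neat1, and for both it was below the coefficient of variation.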
